A study of Mus musculus with 6 samples.

Results

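The proteasome is described here in the livers of F1 female mice, through the 44 genes whose symbols begin with Psma, Psmb, Psmc, Psmd, Psme or Psmf followed by a number, out of 17624 genes measured. The rule takes members by name and uses no measured value, although the gene family was picked with earlier results of these data known. RNA-seq of liver covered 2 groups of 3 mice each, iAsF1-F and conF1-F. iAsF1-F were C57BL/6 females whose fathers had drunk water with inorganic arsenic (iAs, given as sodium arsenite) for some weeks before a single night of mating with unexposed females. conF1-F were C57BL/6 females bred at the same time from fathers without iAs. No F1 mouse of either group drank iAs itself, and the groups are defined by the father's exposure. The livers were collected at feeding status by the sample labels, whereas the paper's legend names the refeeding condition, and the age at collection is not given in the sources used here. The paper calls the samples of a group biological triplicates, and no source says whether mice of a group shared a father or a litter. Differences between fathers or litters therefore cannot be told apart from the exposure.

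The proteasome degrades proteins tagged with ubiquitin. Its core particle is a barrel of alpha rings, which gate the entry, and beta rings, which carry the proteolytic sites in Psmb5, Psmb6 and Psmb7. Each end can carry a regulatory particle made of a base, whose ATPases Psmc1 to Psmc6 unfold substrates, and a lid, whose subunit Psmd14 removes ubiquitin. Interferon gamma and immune cells switch the 3 catalytic sites to Psmb8, Psmb9 and Psmb10, giving the immunoproteasome, which cuts proteins into peptides for antigen presentation. Psme1 and Psme2 form PA28, an activator cap of the same interferon response. When proteasome capacity is short, the transcription factor Nfe2l1 raises most subunit genes together.

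Levels are given in RPKM, the unit the authors deposited, in which reads are divided by transcript length and by library size. Values of the 3 livers of a group are given in the order of replicates 1, 2 and 3. The number of reads is unknown. By the smallest steps between low values, the depth of the libraries was estimated at 67.0% (iAsF1-F replicate 1) to 100% of the deepest. By their decimals, the values of 32 members are means of 2 or more entries of the gene, 7 at most, so levels of different members are not read as amounts of subunits. The test was limma on log2(RPKM + 1) for the 6448 genes that averaged 1 RPKM or more across the livers, with Benjamini-Hochberg adjustment over all of them. Log2 fold changes below are iAsF1-F over conF1-F on this log2(RPKM + 1) scale, and percent differences are between the group means of RPKM. Of the 44 members, 40 passed the filter. The 4 others were Psmb11, Psmc2, Psmd11 and Psme4.

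The livers carried most of their labelled tissue's markers, with Alb at 29841, 34211 and 34763 RPKM in iAsF1-F against 29414, 34391 and 33559 RPKM in conF1-F. Of the 8 hepatocyte markers measured, Ass1 was low, at 0.711, 6.69 and 0.632 RPKM in iAsF1-F against 0.609, 0.974 and 0.714 RPKM in conF1-F. Ttr and Serpina1a were higher and Cyp2e1 lower in iAsF1-F without overlap, orders that 5.83% and 5.71% of all tested genes had. Red cell and immune markers differed between livers. The summed RPKM of the 5 erythroid markers was 367, 339 and 237 in iAsF1-F livers, against 647, 372 and 440 in conF1-F livers, with no overlap, and the part of red cells in the proteasome values was not tested. That of the 7 markers of leukocytes other than Kupffer cells measured here was 55.8, 118 and 126 in iAsF1-F livers, against 263, 70.5 and 74.1 in conF1-F livers. conF1-F replicate 1 thus stood apart, although Ptprc was near 0 in every liver and 3 of the 7 were listed at 0 in at least 1 liver. Among all tested genes, 1261 (19.6%) were listed at 0 in 1 to 5 livers. In such a table a 0 can be a failed estimate, and it is given here only as listed.

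None of the 40 tested proteasome genes passed an adjusted p of 0.05 in limma, where 0.248% of all tested genes did. The smallest adjusted p of a member was 0.877. What the values show is a small difference in one direction across many subunits. Genes measured in the same 6 livers are not separate replicates, and the shares of members below were not tested. The log2 fold change was below 0 for 33 of 40 members (82.5%), against 50.3% of all tested genes, and its median was -0.13 against -0.00. All 3 iAsF1-F values lay under all 3 conF1-F values for 10 members (25%), where 5.71% of all tested genes had this order, and the opposite order was found for 0 members, against 5.83% of all tested genes. The 10 were Psma5, Psmb2, Psmb6, Psmc5, Psmd2, Psmd3, Psmd4, Psmd5, Psmd7 and Psmd12. An unadjusted limma p under 0.05 was reached by 5 members, all with a negative log2 fold change (12.5%, against 2.37% of all tested genes in that direction and 2.75% in the other). Psmd5, which is in each count of lower members, reached the filter only through its conF1-F values. With 3 livers against 3, the smallest p an exact permutation test can give is 0.1, two-sided, which each of the 10 members had.

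**Figure D1:**
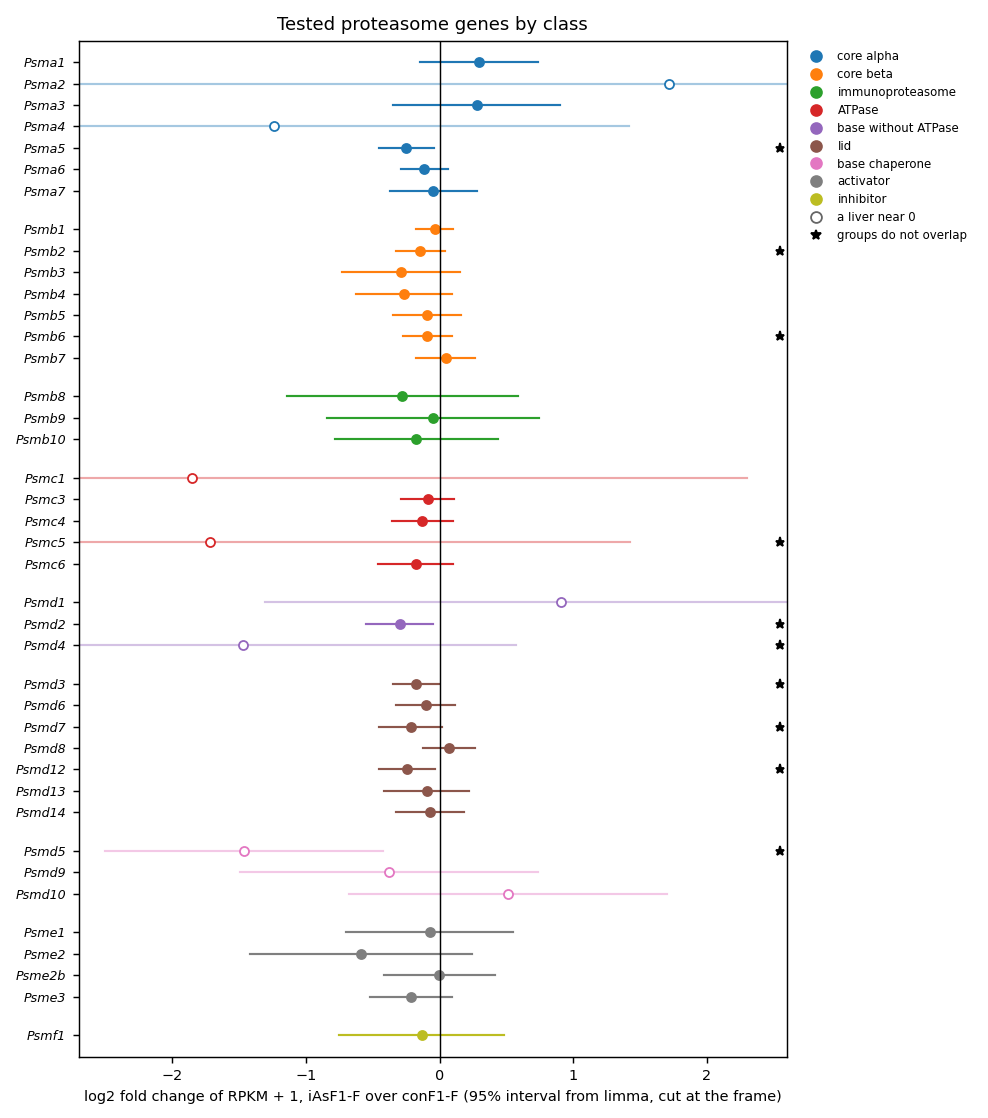
Log2 fold change of RPKM + 1 of the 40 tested proteasome genes, iAsF1-F over conF1-F, on the horizontal axis with the 95% interval from limma as a line, in rows by class. Open circles mark genes with a liver under 10% of the gene's median, and stars mark the 10 genes whose groups did not overlap. Of the 40 points, 33 lie left of 0, and no interval is adjusted for the number of genes.

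The counts were much the same without values near 0. After the data were seen, 9 tested members with a liver under 10% of their own median were set aside, which left 31. Of these, 27 had a log2 fold change below 0 (87.1%, against 51.1% of the 4919 genes left), with a median of -0.11 against -0.00 for all those genes. Their groups did not overlap for 7 members, all lower in iAsF1-F (22.6%, against 6.2%), and 0 members were higher without overlap, against 6.38%. In the same fit, 4 of the 31 had an unadjusted p under 0.05, all lower in iAsF1-F (12.9%, against 2.24% of the genes left). Differences in mean RPKM ran from -43.4% (Psme2) to 35.9% (Psma3), with a median of -9.31%. For the 7 members they ran from -20.6% (Psmd2) to -6.36% (Psmb6).

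Liver by liver, the lower values were plainest in iAsF1-F replicates 1 and 2. The median of the 31 members on the log2 scale, relative to the conF1-F mean RPKM of each gene, was -0.19, -0.17 and -0.06 in iAsF1-F livers, against 0.06, -0.06 and 0.03 in conF1-F livers. The members' medians in iAsF1-F replicate 3 and conF1-F replicate 2 were about equal on this scale, although these libraries differed over all genes, as given next. Over all tested genes without a value near 0 the same medians were -0.03, -0.03 and 0.04 in iAsF1-F livers, against 0.03, -0.05 and 0.02 in conF1-F livers. Of the 31 members, 26, 28 and 22 lay below their conF1-F mean in iAsF1-F livers, against 13, 22 and 12 in conF1-F livers. Of the 4919 tested genes without a value near 0, this held for 2656, 2704 and 2165, against 2177, 2946 and 2290. The conF1-F livers themselves make up that mean. iAsF1-F replicate 1, the library of least estimated depth, was the lowest of the 6 livers for 17 of the 40 tested members (42.5%) and for 25.9% of all tested genes. conF1-F replicate 1 was the highest for 14 members (35%) and for 21.8% of all tested genes. Without iAsF1-F replicate 1, 32 of 41 members had a log2 fold change below 0 and 10 lay lower without overlap (9.11% of all genes in that fit). Without conF1-F replicate 1 the counts were 29 of 40 and 14 (9.78% of all genes), and 3 members lay higher without overlap, where 11.0% of all genes did. The members tested were not the same as before, since Psme4 entered both of these fits and Psmd5 left the latter. Psme4 passed the filter there only through its conF1-F values, and it is among the 14.

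**Figure D2:**
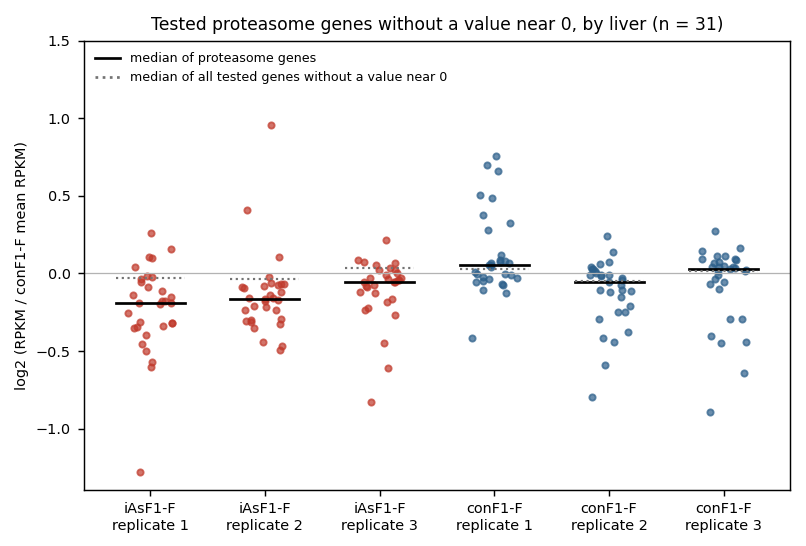
Each point is 1 of the 31 tested proteasome genes without a value near 0, plotted as log2 of its RPKM over its conF1-F mean RPKM in each of the 6 livers. The black line is their median, -0.19, -0.17 and -0.06 in iAsF1-F and 0.06, -0.06 and 0.03 in conF1-F, and the dotted line is the median of all tested genes without a value near 0.

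Promoters were read because Nfe2l1 and its relative Nfe2l2 bind the antioxidant response element and interferon signals act on the immune subunits. RefSeq promoters (GRCm38.p6) were found for 38 of 44 members, as 41 windows of 250 bases before a start. The core of the antioxidant response element, TGACNNNGC on either strand, was in 5 windows (12.2%), against 10.2% of all 32851 windows of the same length. The CCAAT box bound by NF-Y was in 14 (34.1%), against 33.8%. The interferon gamma activated site TTCNNNGAA was in 1 (2.44%), against 7.02%, and the interferon-stimulated response element, GAAA repeated after any 2 bases, in 3 (7.32%), those of Psmb3, Psmd4 and Psmd9, against 2.98%. It was in 0 windows of immunoproteasome or PA28 genes. None of these shares is tested, and a match describes letters only. The 5 antioxidant sites and the interferon gamma site of Psmb8 are shown because these genes' values follow, in the direction of the gene with the motif in capitals:
Psmb5, chr14:54618024-54618052, minus strand: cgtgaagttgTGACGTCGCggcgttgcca
Psmb6, chr11:70525338-70525366, plus strand: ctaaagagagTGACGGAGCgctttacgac
Psmd9, chr5:123228149-123228177, plus strand: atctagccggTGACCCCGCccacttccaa
Psmc6, chr14:45329587-45329615, plus strand: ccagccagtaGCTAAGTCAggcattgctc
Psmd12, chr11:107479278-107479299, plus strand: tctGCTGTGTCAcatttgcccc
Psmb8, chr17:34198088-34198116, plus strand: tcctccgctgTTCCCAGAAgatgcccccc

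Of the 5 genes with the response element letters, Psmb6 and Psmd12 were among those whose groups did not overlap, and Psmb5, Psmc6 and Psmd9 overlapped. The site of Psmb6 ends at the base before the start of transcription, and that of Psmb5 begins at base -47. The sites of Psmc6 and Psmd12 begin at bases -227 and -247, with the motif on the opposite strand. The site of Psmb8 begins at base -97 from the RefSeq start, which lies inside the gene as GENCODE gives it. The windows of Psmb9, Psmb11, Psmd5, Psmd9, Psmd13, Psme1 and Psmf1 also lie inside their genes by GENCODE. So does a further window each of Psma6 and Psmc2. A match or its absence there need not describe the bases before the GENCODE start. The whole window of Psmb6 (chr11:70525107-70525356, plus strand), a catalytic subunit of the constitutive core with the element next to its start, is shown with the site in capitals:
Psmb6: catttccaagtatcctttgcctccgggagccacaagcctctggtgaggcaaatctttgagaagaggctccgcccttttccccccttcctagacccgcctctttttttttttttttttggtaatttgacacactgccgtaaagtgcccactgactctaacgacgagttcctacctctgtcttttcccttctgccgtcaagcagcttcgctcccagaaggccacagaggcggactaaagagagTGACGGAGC

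Among the 7 alpha subunits of the core, all tested, 4 had a log2 fold change below 0 and 3 above, with a median of -0.05. Psma5 (chr3:108256926-108279974, GRCm38) had 19.1, 21.6 and 20.3 RPKM in iAsF1-F livers, against 25.3, 25.1 and 22.7 RPKM in conF1-F livers. Every iAsF1-F liver was lower, with means of 20.4 ± 1.26 and 24.4 ± 1.44 RPKM (SD, n = 3 each). This is a difference of -16.5%, at a log2 fold change of -0.25 (SE 0.08), and limma gave an adjusted p of 0.877. Psma6, the alpha subunit of highest mean level, had 29.8, 30.9 and 33.3 RPKM in iAsF1-F livers, against 32.7, 34.2 and 34.9 RPKM in conF1-F livers. Here the groups overlapped by a single liver, and the log2 fold change was -0.11 (SE 0.07). Psma1 and Psma3, also alpha ring subunits, had positive log2 fold changes of 0.30 (SE 0.18) and 0.28 (SE 0.25), and Psma7, whose tail takes part in the gate, had -0.05 (SE 0.13). All 3 overlapped between the groups.

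The 7 constitutive beta subunits were the class of highest values, and 6 of them had a log2 fold change below 0, with a class median of -0.09. Psmb1, a structural beta subunit and the member of highest mean level, had 80.8, 76.5 and 81.0 RPKM in iAsF1-F livers, against 79.5, 81.0 and 84.1 RPKM in conF1-F livers. Its groups overlapped and its log2 fold change was -0.04 (SE 0.05), with a 95% interval of -0.18 to 0.10. Psmb2 (chr4:126677630-126709714), another structural subunit, had 16.4, 16.0 and 17.9 RPKM in iAsF1-F livers, against 18.5, 18.4 and 18.9 RPKM in conF1-F livers. Its groups did not overlap, at a log2 fold change of -0.14 (SE 0.07) and a difference of -9.88%. The structural subunits Psmb3 and Psmb4 had log2 fold changes of -0.29 (SE 0.18) and -0.27 (SE 0.14), with overlap. Among the 3 catalytic subunits, Psmb6, the caspase-like site, had 20.51, 22.20 and 22.59 RPKM in iAsF1-F livers, against 24.48, 22.62 and 22.63 RPKM in conF1-F livers. Its groups were parted only by the narrow step between 22.59 and 22.62 RPKM. Psmb5, the chymotrypsin-like site, had 37.8, 43.2 and 45.7 RPKM in iAsF1-F livers, against 44.6, 41.8 and 48.7 RPKM in conF1-F livers. Psmb7, the trypsin-like site, had 29.3, 26.9 and 28.4 RPKM in iAsF1-F livers, against 28.6, 24.6 and 28.7 RPKM in conF1-F livers. Both overlapped between the groups, with log2 fold changes of -0.09 (95% interval -0.35 to 0.16) for Psmb5 and 0.05 (95% interval -0.17 to 0.26) for Psmb7. Psmb11, the beta subunit of the thymus, was listed at 0 in 5 livers and at 0.00447 RPKM in iAsF1-F replicate 3.

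In the immunoproteasome a single conF1-F liver stood apart. Psmb8 (chr17:34197721-34201454) had 11.6, 12.5 and 11.7 RPKM in iAsF1-F livers, against 25.9, 11.8 and 10.2 RPKM in conF1-F livers. Psmb9 had 1.58, 1.59 and 2.12 RPKM in iAsF1-F livers, against 3.38, 1.54 and 1.07 RPKM in conF1-F livers. Psmb10 had 3.45, 3.16 and 2.35 RPKM in iAsF1-F livers, against 5.08, 3.01 and 2.64 RPKM in conF1-F livers. In all 3 genes conF1-F replicate 1 was the highest liver and the other 5 overlapped. That liver had 2.24 times the mean of the other 5 for Psmb8, 2.14 times for Psmb9 and 1.74 times for Psmb10. The class median of the log2 fold change was -0.17, and 0.11 without conF1-F replicate 1, so its sign rests on that liver. Psmb8, Psmb9 and Psmb10 had log2 fold changes of -0.28 (SE 0.35), -0.05 (SE 0.32) and -0.17 (SE 0.24), and of 0.11, 0.26 and 0.05 without conF1-F replicate 1. As a share of the summed RPKM of the 3 immune and the 3 constitutive catalytic genes, the immune genes made up 16.0%, 15.8% and 14.3% in iAsF1-F livers, against 26.0%, 15.5% and 12.2% in conF1-F livers.

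The PA28 genes stood high in the same liver. Psme1 had 18.6, 15.5 and 18.0 RPKM in iAsF1-F livers, against 26.6, 16.4 and 13.9 RPKM in conF1-F livers. Psme2 had 2.05, 3.60 and 2.81 RPKM in iAsF1-F livers, against 7.86, 3.31 and 3.76 RPKM in conF1-F livers. conF1-F replicate 1 was again the highest, at 1.62 times the mean of the other 5 livers for Psme1 and 2.53 times for Psme2. The log2 fold change of Psme1 was -0.07 (SE 0.25) and turned to 0.19 without this liver, and that of Psme2 was -0.59 (SE 0.33) and -0.27 without it. Psme2b, a near-identical intronless copy of Psme2 on chromosome 11, had 19.5, 17.9 and 18.6 RPKM in iAsF1-F livers, against 23.9, 17.7 and 15.5 RPKM in conF1-F livers. Reads of Psme2 and Psme2b may have been split between the copies, so the level of each is uncertain.

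Genes of antigen-presenting cells stood high in the same liver. Cd74, the invariant chain of MHC class II, had 20.3, 34.5 and 34.4 RPKM in iAsF1-F livers, against 88.1, 22.2 and 22.0 RPKM in conF1-F livers. conF1-F replicate 1 had 3.30 times the mean of the other 5 livers for Cd74 and 4.91 times for H2-Eb1, a class II chain. Among those 5, H2-Eb1 was listed at 0 in iAsF1-F replicate 1. conF1-F replicate 1 was the highest liver for 6 of 7 measured leukocyte markers and 6 of 7 Kupffer cell markers, and for 21.8% of all tested genes. This was not particular to immune cells, as it was also highest for 4 of 5 erythroid and 2 of 2 cholangiocyte markers. For stellate, sinusoidal endothelial and hepatocyte markers the counts were 2 of 6, 1 of 7 and 0 of 8. The summed RPKM of the Kupffer cell markers was 69.8, 218 and 158 in iAsF1-F livers, against 281, 185 and 124 in conF1-F livers. Of these 7 markers, 4 were listed at 0 in at least 1 liver, so the sums rest in part on listed 0s. Of the 13 interferon and antigen presentation genes, 8 were highest in conF1-F replicate 1 as well. B2m, the light chain of MHC class I, differed less, with 1048, 1073 and 1085 RPKM in iAsF1-F livers against 1238, 1124 and 1003 RPKM in conF1-F livers. In whole liver, more cells of a type and more RNA per cell cannot be told apart, and the part of these cells in the immunoproteasome values was not tested.

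**Figure D3:**
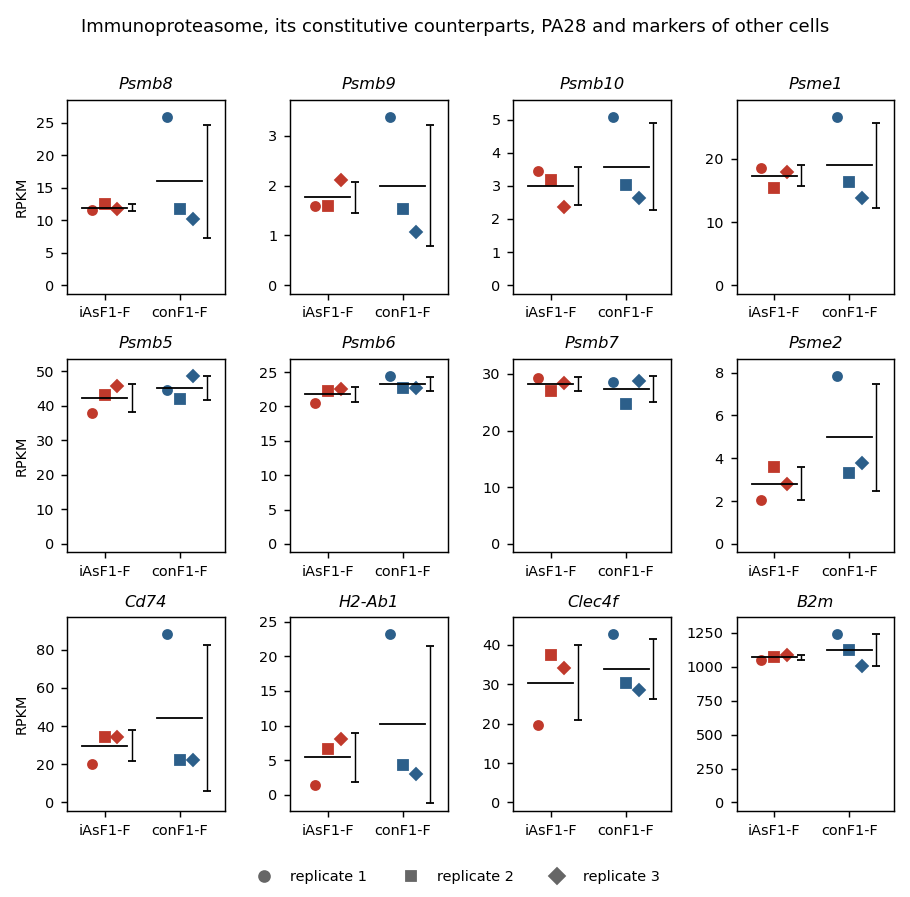
RPKM in each of the 6 livers for the immunoproteasome genes Psmb8, Psmb9 and Psmb10, the constitutive Psmb5, Psmb6 and Psmb7, the activators Psme1 and Psme2, and Cd74, H2-Ab1, Clec4f and B2m, with the group mean as a line and the SD (n = 3) as a bar. conF1-F replicate 1 is the highest point for every gene shown but Psmb5 and Psmb7, for example 25.9 RPKM for Psmb8 and 88.1 RPKM for Cd74.

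In the base of the regulatory particle, all 5 tested ATPases had a log2 fold change below 0, with a median of -0.18. For Psmc3, Psmc4 and Psmc6, which had no value near 0, it was -0.09 (SE 0.08), -0.13 (SE 0.09) and -0.18 (SE 0.11), each with overlapping groups. Psmc5 (chr11:106256154-106263120) was listed at 0 RPKM in iAsF1-F replicate 1 and had 18.95 and 19.89 RPKM in the other iAsF1-F livers, against 24.2, 23.2 and 23.4 RPKM in conF1-F livers. Both iAsF1-F livers above 0 were lower than every conF1-F liver, but the fitted log2 fold change of -1.72 (SE 1.25) rests mostly on the listed 0 and was -0.27 without that library. Psmc1, the ATPase of highest mean level, was listed at 0 in the same liver and had 51.5 and 45.9 RPKM in the other iAsF1-F livers, against 59.6, 27.4 and 66.4 RPKM in conF1-F livers. Its log2 fold change of -1.85 (SE 1.65) became 0.02 without iAsF1-F replicate 1. Psmc2 was near 0 in all livers, between 0.0457 and 0.0750 RPKM, although every working base holds its protein. Among the base subunits that are not ATPases, Psmd2 (chr16:20651652-20663414), a scaffold that receives ubiquitin receptors, had 6.85, 6.18 and 7.67 RPKM in iAsF1-F livers, against 8.74, 8.72 and 8.63 RPKM in conF1-F livers. All iAsF1-F livers were lower, and the conF1-F livers were nearly equal. The means were 6.90 ± 0.745 and 8.70 ± 0.0587 RPKM (SD, n = 3 each). This is a difference of -20.6%, at a log2 fold change of -0.30 (SE 0.10) and an adjusted p of 0.877 in limma.

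In the lid, 3 of the 7 tested members lay lower without overlap, where 5.71% of all tested genes did, and 6 of 7 log2 fold changes below 0 with a median of -0.11. Psmd12 (chr11:107479484-107504362), the lid subunit of highest mean level, had 25.1, 25.2 and 28.8 RPKM in iAsF1-F livers, against 32.6, 29.8 and 31.6 RPKM in conF1-F livers. Psmd3 (chr11:98682554-98695979) had 12.24, 12.52 and 11.97 RPKM in iAsF1-F livers, against 13.5, 14.3 and 14.2 RPKM in conF1-F livers. Both are structural subunits of the lid's scaffold, and in both every iAsF1-F liver was lower. The log2 fold change was -0.24 (SE 0.08) for Psmd12 and -0.18 (SE 0.07) for Psmd3, with an adjusted p of 0.877 each from limma. Psmd7 (chr8:107580381-107588464), the partner of the deubiquitinase Psmd14, had 15.4, 15.6 and 18.2 RPKM in iAsF1-F livers, against 18.3, 18.9 and 20.5 RPKM in conF1-F livers. The groups were parted by the step between 18.2 and 18.3 RPKM, and the log2 fold change was -0.22 (SE 0.09). Psmd14 itself overlapped, at -0.07 (SE 0.10), as did Psmd6 at -0.11 and Psmd13 at -0.10. Among the 7 tested lid members, Psmd8 was the exception in sign, at 0.07 (SE 0.08). The symbol of Sem1 falls outside the rule, and it is counted below among the regulatory particle partners. Sem1 had 7.739, 7.957 and 8.783 RPKM in iAsF1-F livers, against 7.737, 6.493 and 6.332 RPKM in conF1-F livers. It was higher without overlap, as were 5.83% of all tested genes, by the step between 7.739 and 7.737 RPKM. Its log2 fold change was 0.22 (SE 0.11). Psmd11 was near 0 in every liver, between 0.0347 and 0.0437 RPKM, with all 3 iAsF1-F values below the conF1-F values.

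**Figure D4:**
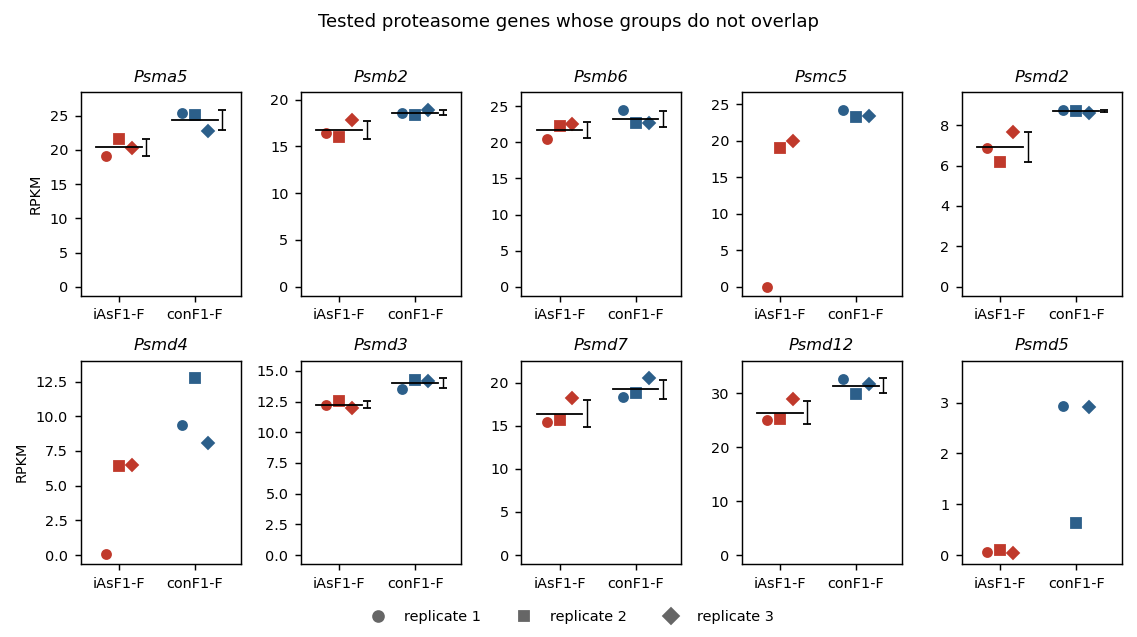
RPKM in each of the 6 livers for the 10 tested proteasome genes whose 3 iAsF1-F values all lie below their 3 conF1-F values, with the group mean as a line and the SD (n = 3) as a bar, left out for Psmc5, Psmd4 and Psmd5, which have a liver near 0. The differences are small beside the level for most genes, for example 20.4 against 24.4 RPKM for Psma5, and Psmb6 is parted only at 22.59 against 22.62 RPKM.

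The widest differences of single members belonged to genes with values near 0. Psmd5 (chr2:34849734-34874968), a chaperone that helps assemble the base, had 0.0536, 0.0966 and 0.0348 RPKM in iAsF1-F livers, against 2.94, 0.637 and 2.91 RPKM in conF1-F livers. All iAsF1-F livers were near 0 and all conF1-F livers higher, at a log2 fold change of -1.47 (SE 0.41). The adjusted p was 0.877, and 0.138 at the lowest when 1 library was left out (limma). It passed the filter on low values only through the conF1-F livers, so it had to differ to be tested, and its values are means of 3 entries. Psmd4, a ubiquitin receptor of the base, had 0.0966, 6.43 and 6.46 RPKM in iAsF1-F livers, against 9.41, 12.7 and 8.06 RPKM in conF1-F livers. Its groups did not overlap also without the low first value, and the log2 fold change of -1.47 (SE 0.81) was -0.55 without iAsF1-F replicate 1. With no filter, which keeps all 44 members, 36 had a log2 fold change below 0 and 11 lay lower without overlap, against 4.23% of all 17624 genes.

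Values near 0 lay in both groups. Psma2 had 49.1 and 41.4 RPKM and a listed 0 in iAsF1-F livers, against listed 0s in replicates 1 and 3 and 58.8 RPKM in conF1-F livers. Psma4 was listed at 0 in iAsF1-F replicate 1 and had 11.1 and 12.4 RPKM in the other iAsF1-F livers, against 10.7, 12.1 and 12.9 RPKM in conF1-F livers. Psma2 and Psma4 encode alpha subunits that every core particle holds. Psmd10, a base chaperone also known as gankyrin, had 1.67, 1.98 and 2.04 RPKM in iAsF1-F livers, against 1.59, a listed 0 and 2.21 RPKM in conF1-F livers. Psmd1, a base scaffold subunit, had 8.46, 8.90 and 8.96 RPKM in iAsF1-F livers, against 0.275, 9.58 and 9.51 RPKM in conF1-F livers. Psmd9, another base chaperone, had 0.125, 2.01 and 1.91 RPKM in iAsF1-F livers, against 1.53, 1.53 and 2.37 RPKM in conF1-F livers. Outside the single low liver the groups overlapped for Psma4, Psmd9 and Psmd10, and the remaining conF1-F values of Psmd1 lay above its iAsF1-F values. In all, 7 values under 10% of their gene's median lay in iAsF1-F livers, 5 of them in replicate 1, and 4 in conF1-F livers. For Psmd5 only iAsF1-F replicate 3 counts by this rule, although its other iAsF1-F values were near 0 as well.

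**Figure D5:**
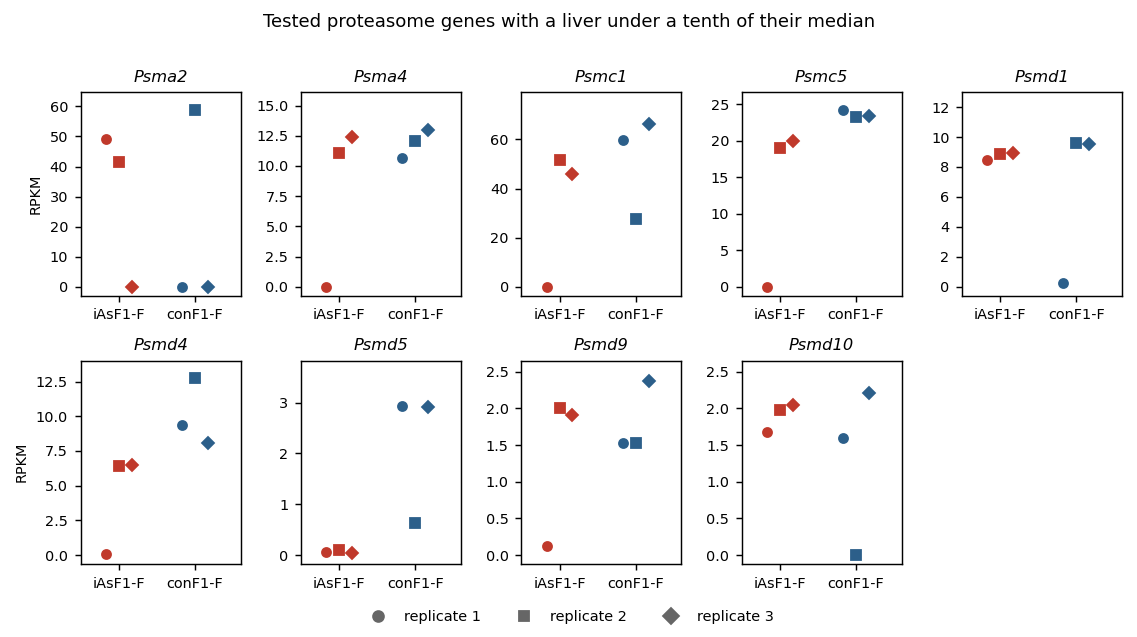
RPKM in each of the 6 livers for the 9 tested proteasome genes with a liver under 10% of their median, with no mean or error drawn. In 5 of them the low point is iAsF1-F replicate 1, for example Psmc5 at 0 beside 18.95 and 19.89 RPKM.

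Of the other regulators, Psme3, the nuclear activator PA28 gamma, had a log2 fold change of -0.21 (SE 0.12) with overlapping groups. Psme4, the activator PA200, did not reach the filter and had 0.167, 0.282 and 0.616 RPKM in iAsF1-F livers, against 0.297, 2.21 and 2.05 RPKM in conF1-F livers. Psmf1, an inhibitor of the core, had 1.21, 1.73 and 1.68 RPKM in iAsF1-F livers, against 2.23, 1.06 and 2.22 RPKM in conF1-F livers. The groups of both genes overlapped.

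The partners of the proteasome were mixed in sign. None of the 39 tested genes of 6 partner lists passed an adjusted p of 0.05 (limma, 0.248% of all tested genes). The median log2 fold change was -0.12 for 5 tested assembly chaperones, 0.01 for 10 regulatory particle partners and ubiquitin receptors, 0.02 for 6 transcription regulators, 0.29 for 5 genes of ubiquitin and its activation, -0.14 for 3 genes of the p97 complex and -0.05 for 10 interferon and antigen presentation genes. Uba1, the enzyme that activates ubiquitin, was the single partner with an unadjusted p under 0.05 in limma. It had 8.18, 8.90 and 9.06 RPKM in iAsF1-F livers, against 7.45, 7.29 and 7.19 RPKM in conF1-F livers. Every iAsF1-F liver was higher, at a log2 fold change of 0.22 (SE 0.08) and an adjusted p of 0.877 in limma, opposite in sign to most subunits. Nfe2l1, the regulator of subunit genes, had 4.11, 2.91 and 5.46 RPKM in iAsF1-F livers, against 5.76, 3.78 and 4.57 RPKM in conF1-F livers, with a log2 fold change of -0.16 (SE 0.24). It was named after its values were seen, as was Nfe2l2, the oxidative stress regulator of the same family. Nfe2l2 had 11.8, 13.2 and 11.43 RPKM in iAsF1-F livers, against 10.2, 11.2 and 11.40 RPKM in conF1-F livers. Its groups were parted only by the step between 11.43 and 11.40 RPKM.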

How the data were processed

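RNA-seq libraries of 6 livers were grouped by the sample labels into iAsF1-F and conF1-F. The deposited values are RPKM, scaled by the authors for transcript length and library size. STAR 2.5.3a and DESeq2 1.8.2 are named with HTSeq and mm10 in the submitters' processing notes, without their roles, and the program behind the RPKM values is not given in the sources used here. The tables of single libraries and of the whole series were equal in 105744 of 105744 cells (relative tolerance 1e-06). In conF1-F replicate 1, 13 cells shown as dates or times, 0 of them of proteasome genes, were converted back.

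The 6448 genes averaging 1 RPKM or more were compared as log2(RPKM + 1) with limma 3.58.1 in R 4.3.3 (group only, variance trend), with Benjamini-Hochberg adjustment over all of them at 0.05, and by two-sided exact permutation tests. Since the values are not counts, no count test was run. p-values measure the spread between these 6 livers. Positions are from GENCODE M21 on GRCm38, promoters from RefSeq. Values were read with Python 3.11.15 and pandas 2.3.3. The comparison was also tested on simulated data.

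The members and lists were chosen with earlier results of these data known. Values per liver are given for the immune and catalytic subunits, Psme1, Psme2, members with an unadjusted p under 0.05, without overlap or listed at 0 in 1 to 5 livers, and the member of highest mean in each class. Psmd1, Psmd9, Psme4 and Sem1 were added after their values were seen. Partner genes are named at an unadjusted p under 0.05. Alternatives were a pseudocount of 0.1, no filter, rescaled RPKM, genes listed at 0 removed, the replicate number as a block, a robust fit, other thresholds and each library left out. The removal of genes with a liver under 10% of their median was added after the data were seen.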

Additional observations from a re-analysis of the deposited data

How the results depend on the processing

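No proteasome gene passed an adjusted p of 0.05 in limma under any alternative run, nor at an adjusted p of 0.1. In the main fit 5 had an unadjusted p under 0.05 in limma. Over the alternatives this count ran from 1 (without conF1-F replicate 1 or 3) to 6 (without iAsF1-F replicate 3). It was 3 with the genes near 0 removed before the fit. Of 526 alternative values, 505 kept their direction, side of the threshold or count within 1.5 times. Many of these could not turn in direction. The block, the robust fit and the changes of filter leave the log2 fold change of a single gene as it was. Rescaled RPKM turned the log2 fold change of Psme2b to 0.0072. With each library left out in turn, the count of members without overlap ran from 10 to 21, being 21 without iAsF1-F replicate 3, 17 where conF1-F replicate 1 was left out and 19 in the absence of conF1-F replicate 2 (20.1% to 22.0% of all tested genes over these fits, against 11.5% with every liver), and the members' median from -0.17 to -0.09. Class medians ran from -0.11 to 0.036 for core alpha (above 0 without conF1-F replicate 3), -0.32 to 0.11 for the immunoproteasome (above 0 without conF1-F replicate 1) and -0.62 to 0.30 for base chaperones (above 0 without iAsF1-F replicate 1, conF1-F replicate 1 or conF1-F replicate 3). Without conF1-F replicate 1 or 3, Psmd5 failed the filter and only 2 base chaperones were left, so those medians are of fewer genes. Between 39 and 41 members were tested in these fits, as Psme4 passed the filter in some of them. Single genes that turned ran from -0.025 to 0.083 (Psmb7), -0.52 to 0.11 (Psmb8), -0.28 to 0.26 (Psmb9), -0.32 to 0.051 (Psmb10), -0.26 to 0.19 (Psme1), -0.13 to 0.17 (Psme2b) and -2.83 to 0.024 (Psmc1). Interferon and antigen presentation genes past the threshold numbered 0 to 1, the 1 being Erap1 without iAsF1-F replicate 1 (adjusted p = 0.00451, limma), a gene listed at 0 in that library and in all conF1-F livers. Causes were not tested.

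Same-numbered livers did not deviate together (correlations across genes of -0.07, 0.02 and 0.01), so the numbers were not taken as pairs. With the replicate number as a block, 0 proteasome genes and 0 of all 6448 genes passed, against 16 of all genes without it, and 4 proteasome genes had an unadjusted p under 0.05. Over all alternatives the number of genes past the threshold ran from 0 to 38. Without read counts, the precision of single values could not be computed.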
